A study of Homo sapiens with 6 samples.

Results

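The ADAM sheddases and the urokinase system were represented by 10 genes, listed in the signal table as ADAM8, ADAM9, ADAM10, ADAM12, ADAM15, ADAM17, ADAM19, ADAMTS1, PLAU and PLAUR, of 34694 gene symbols in all. They were chosen by symbol, with earlier results of these data known, as some of the membrane-bound ADAM proteases, 1 secreted relative and the urokinase enzyme with its receptor. Expression was measured on Illumina arrays with total RNA of SCC25 cells, an established line from an oral squamous cell carcinoma. The tested cells received 2.0 mM aspirin, a drug that blocks the cyclooxygenase enzymes, and the control cells received none; all were grown for 72 h at the same temperature. Each group had 3 arrays, with replicates 1 and 3 of both groups on chip 1 and replicate 2 of both on chip 2. Whether each replicate was its own culture is not labelled, so the p-values rest on a spread between arrays that could be technical. The data describe 1 cell line at 1 dose and time.

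ADAM proteases sit in the plasma membrane and cut the outer parts of other membrane proteins, a process called shedding that releases growth factors, cytokines and adhesion molecules. ADAM10 and ADAM17 are the best known sheddases of epithelia, acting on Notch receptors, ligands of the EGF receptor and tumor necrosis factor. Urokinase, encoded by PLAU, is a secreted serine protease that turns plasminogen into plasmin at the cell surface, where its receptor PLAUR, held by a lipid anchor, binds it; both are well studied in the invasion of squamous carcinoma.

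Array medians lay at 101.9 to 127 intensity units, where the background averaged 95.4 to 116 units, and 14691 to 15170 genes were detected per array. All 7 squamous epithelial markers (among them KRT5, KRT14, TP63 and CDH1) were above background on all 6 arrays. Their summed signal over background was 34038 to 41833 units on aspirin arrays and 46073 to 56927 on control arrays. The leukocyte genes PTPRC, ITGAM, LYZ and CD3E were above background on none, CSF1R on some and CD68 and CD14 on all, with summed signals of 846 to 1512 units with aspirin and 1386 to 1695 in controls. Of 5 endothelial markers CDH5 and KDR were above background on none, and sums were 1.65 to 31.5 units with aspirin and 6.84 to 78.2 in controls. Of 7 fibroblast-type matrix and stroma markers, 6 were above background on at least 1 array and PDGFRB on none, and the summed signal was 93.9 to 189 units with aspirin and 395 to 1169 in controls. In bulk RNA, fewer cells of a type and less RNA per cell cannot be told apart.

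Shown first are the windows around the RefSeq start sites (GRCh38.p14; 250 bases before to 50 after) of the 3 genes that were highest with aspirin relative to control, ADAM8, ADAM19 and PLAU, and of the urokinase receptor gene for comparison. They lie at chr10:133276819-133277118 (minus strand, ADAM8), chr5:157575726-157576025 (minus strand, ADAM19), chr10:73910882-73911181 (plus strand, PLAU, 1 of 2 windows listed for it) and chr19:43670120-43670419 (minus strand, PLAUR). Capitals mark matches to any of 6 motifs searched on both strands.
ADAM8: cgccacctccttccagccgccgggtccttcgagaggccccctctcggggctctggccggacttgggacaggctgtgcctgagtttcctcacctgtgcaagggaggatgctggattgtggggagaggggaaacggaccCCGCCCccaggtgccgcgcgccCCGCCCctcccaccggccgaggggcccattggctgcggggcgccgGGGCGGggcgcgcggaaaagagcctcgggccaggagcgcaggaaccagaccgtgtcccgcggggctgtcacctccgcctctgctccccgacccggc
ADAM19: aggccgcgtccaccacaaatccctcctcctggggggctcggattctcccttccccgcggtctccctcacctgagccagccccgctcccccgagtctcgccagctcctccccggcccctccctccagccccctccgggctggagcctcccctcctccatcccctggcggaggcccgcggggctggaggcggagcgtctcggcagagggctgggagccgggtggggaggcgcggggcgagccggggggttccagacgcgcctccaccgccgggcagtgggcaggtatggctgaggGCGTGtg
PLAU: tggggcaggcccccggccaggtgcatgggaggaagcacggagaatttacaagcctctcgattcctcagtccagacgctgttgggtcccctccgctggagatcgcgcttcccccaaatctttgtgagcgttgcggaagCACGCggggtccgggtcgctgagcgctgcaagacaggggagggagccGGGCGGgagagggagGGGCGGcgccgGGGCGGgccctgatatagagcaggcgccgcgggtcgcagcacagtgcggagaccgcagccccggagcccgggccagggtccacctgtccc
PLAUR: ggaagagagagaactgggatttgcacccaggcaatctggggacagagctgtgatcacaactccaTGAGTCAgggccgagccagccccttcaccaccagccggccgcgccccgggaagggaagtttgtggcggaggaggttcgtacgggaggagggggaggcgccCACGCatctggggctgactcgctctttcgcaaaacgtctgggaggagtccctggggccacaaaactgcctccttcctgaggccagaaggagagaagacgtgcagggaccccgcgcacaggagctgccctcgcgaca
The motifs were the AP-1 site TGAGTCA, the cyclic AMP element TGACGTCA, the E-box CACGTG, the GC box GGGCGG, the xenobiotic response core GCGTG and the TATA box TATAAA, and no matches overlapped. A GC box occurred in the windows of 6 of the 8 genes that have one: 6 times in that of ADAM15, 3 times each in those of ADAM8, PLAU, ADAM12 and ADAM17, and once in that of ADAM10, and 45.0% of all 35116 listed windows hold at least 1. PLAUR alone of the 8 genes with a window (all but ADAM9 and ADAMTS1) had an AP-1 match, at position -186 from the start, as do 4.95% of all windows. The xenobiotic core was found in the windows of ADAM19, PLAU, PLAUR, ADAM10 and ADAM17, against 36.5% of all windows, and the E-box in that of ADAM10 (7.26% of all windows). No cyclic AMP element or TATA box was matched, motifs held by 1.85% and 11.5% of all windows. The G and C content was 74.0%, 75.7% and 70.0% in the windows shown for ADAM8, ADAM19 and PLAU, 79.3% and 74.7% in those of ADAM15 and ADAM17, and 58.7% in the median of all windows. The other PLAU window had 48.7% and no motif match. A match is a description of letters and not evidence of binding.

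Of the 10 genes, 8 had detection scores high enough on at least 3 arrays to be tested, and 4 of these passed: ADAM8 and PLAU were higher with aspirin, and ADAM9 and ADAMTS1 were lower. Among all 15128 genes tested, 20.2% passed, 10.5% upward and 9.73% downward. The median difference of the 8 genes was 0.14 on the log2 scale, against 0.02 for all genes tested. Groups did not overlap for 5 of the 8, namely the 4 that passed and ADAM10, where 38.8% of all genes tested had groups without overlap (20.6% higher with aspirin and 18.2% lower). ADAM8, PLAU and ADAM9 both passed and differed by at least 2-fold, as did 6.03% of all genes tested. ADAM12 and ADAM19 missed the filter on detection and are described apart. All levels below are normalized log2 signals, all differences are aspirin minus control on that scale with SE, for 3 arrays in each group. The adjusted p comes from limma, by the Benjamini-Hochberg method across all genes tested, with 0.05 as threshold.

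**Figure D1:**
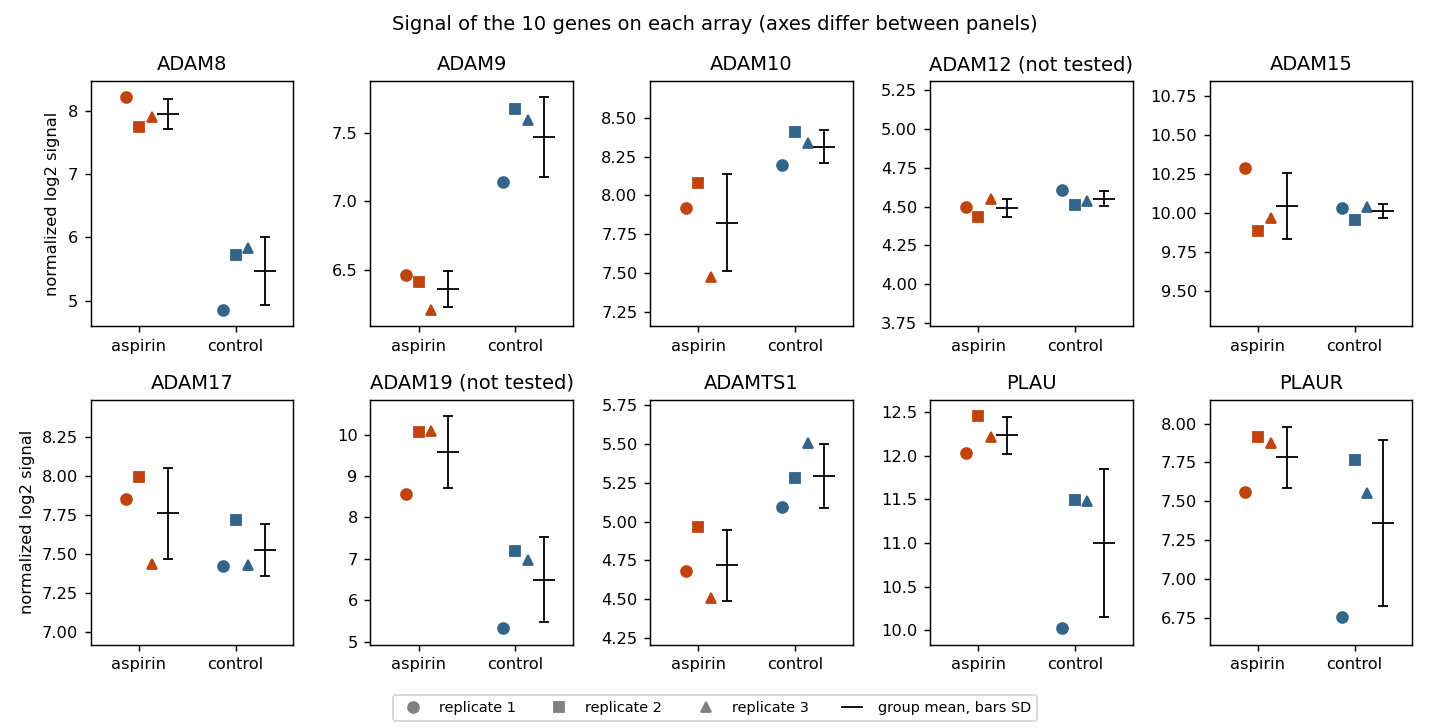
Normalized log2 signal of each of the 10 genes on the 3 aspirin arrays (left in each panel, red) and the 3 control arrays (right, blue), with marker shapes for replicates and the group mean ± SD in black; the vertical axes differ between panels. ADAM8 lies between 7.74 and 8.21 with aspirin and between 4.86 and 5.84 in controls, and control replicate 1 is the lowest array for ADAM8, ADAM17, ADAM19, PLAU and PLAUR.

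ADAM8 is a membrane protease with an active catalytic site, known from leukocytes and from invasive carcinoma. Its signal was 8.21, 7.74 and 7.90 on aspirin arrays 1 to 3 and 4.86, 5.73 and 5.84 on control arrays 1 to 3. All aspirin arrays were far above all controls, and control replicate 1 was the lowest of the 6. ADAM8 rose by 2.48 ± 0.26, a 5.57-fold change (adjusted p = 0.000865), rank 6 among the rises of 15128 genes tested. On the deposited scale, with the background left in, the signals were 316.9, 343.7 and 303.2 units with aspirin and 116, 161.5 and 141.3 in controls. Control replicate 1 was thus 11 units over its background, with a detection score of 0.951, just over the minimum of 0.95. The call held with the chip as a block (adjusted p = 0.00231), with differences of 2.71 on chip 1 and 2.01 in the chip 2 pair. With an all-gene background, taken over every gene in the table and at 132 to 175 units, the difference shrank to 0.49 (adjusted p = 0.0130), and with no background correction it was 1.33 (adjusted p = 0.00114). On each array the all-gene background lay above the median signal, and on each control array also above the ADAM8 signal. In all 22 other settings run ADAM8 was higher with aspirin and past the threshold, and the size of the difference moved with the treatment of the background. Of the leukocyte markers above background, CD14 fell (-0.94, adjusted p = 0.0267), while CD68 and CSF1R did not pass (adjusted p = 0.998 and 0.322), and their part in the result was not tested.

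By the distance between mean-centred signals over the 6 arrays, the tested genes nearest to ADAM8 were the keratins KRT80 (distance 0.39 log2 units) and KRT75 (0.63) and the monooxygenase gene CYP1A1 (0.66). They rose by 2.71, 2.57 and 2.44. These arrays share the 2 treatment groups, so any gene with a rise of like size lies near, and the likeness is given as a description.

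ADAM19, a protease that sheds neuregulins and is prominent in the developing heart and nerve, had the largest difference of the 10 genes but was not tested in the main comparison. Its deposited signal was 378.3, 1333.3 and 1052.6 units on aspirin arrays 1 to 3 and 126.4, 275 and 208.7 units on control arrays 1 to 3. The aspirin arrays all exceeded the controls, and replicate 1 was the lowest of its group on both sides. After normalization the signals were 8.57, 10.08 and 10.09 with aspirin and 5.33, 7.20 and 6.96 in controls. The difference was 3.08, or 8.47-fold, and 3.24, 2.88 and 3.13 within replicate pairs 1 to 3. ADAM19 was kept out by detection scores of 0.314 to 0.877, which do not lie on the steps that most genes' scores take, even though all 6 of its signals were more than 3 SD over the mean of the background. Its lowest score, 0.314, stood on aspirin array 2, where its signal was highest, so score and signal disagreed. How probes were combined into its value on each array is not known, which limits the reading of its difference and rank. When genes were instead filtered by signal, a setting added once the data had been seen, the rise was 3.08 ± 0.56 (adjusted p = 0.00684), rank 2 among 13092 genes, of which 25.1% passed (13.1% higher). With no filter the adjusted p was 0.0299, and 8.26% of all genes passed. Its difference was 1.95 under the all-gene background.

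PLAU, the urokinase gene, was well above background on all 6 arrays. Its signal was 12.03, 12.46 and 12.21 on aspirin arrays 1 to 3 and 10.02, 11.50 and 11.48 on control arrays 1 to 3. The groups did not overlap, and control replicate 1 lay 1.47 below the mean of the other controls. PLAU rose by 1.23 ± 0.37, or 2.35-fold (adjusted p = 0.0471), close to the threshold. Within replicate pairs 1 to 3 the differences were 2.00, 0.96 and 0.73, so the pair of replicate 1 gave the largest. Without control replicate 1 the rise was 0.74 (adjusted p = 0.0216), and leaving out the replicate 1 pair gave 0.84 (adjusted p = 0.00900). The call was lost without control replicate 3 (adjusted p = 0.0523) and without aspirin replicate 1, 2 or 3 (adjusted p = 0.0712, 0.128 and 0.117). It was also lost with median scaling, cyclic loess, no filter, no background correction, a trended and robust variance prior, the deposited matrix and the all-gene background, where the difference stayed between 1.08 and 1.40. With the chip as a block it passed (adjusted p = 0.0441), with differences of 1.37 on chip 1, where the call was lost (adjusted p = 0.132), and 0.96 in the chip 2 pair. Blocking on the replicate number gave an adjusted p of 0.00678.

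PLAUR, the receptor that holds urokinase on the cell surface, had signals of 7.56, 7.91 and 7.88 on aspirin arrays and 6.76, 7.77 and 7.55 on control arrays. The groups overlapped, with control replicate 1 the lowest. Its difference of 0.42 ± 0.26 did not pass (adjusted p = 0.285), and the 95% interval ran from -0.16 to 1.01. Without control replicate 1 the difference was 0.12, and with the replicate block the adjusted p was 0.0675.

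**Figure D2:**
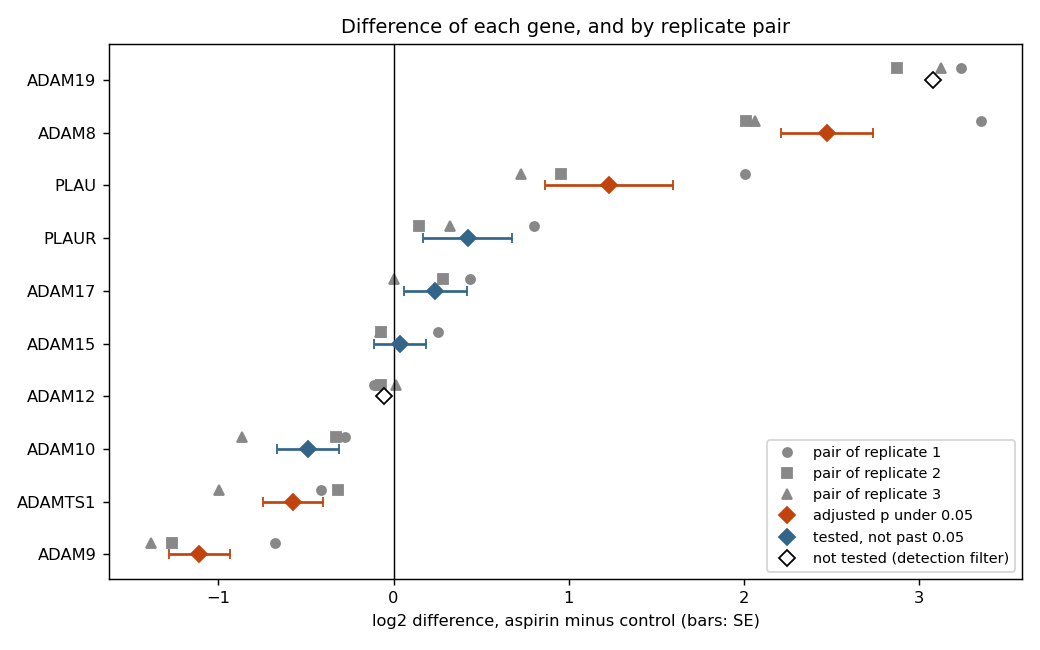
Log2 difference, aspirin minus control, of each of the 10 genes (diamonds, bars SE; open where the gene missed the detection filter), with the difference within each replicate pair in grey. All genes but ADAM12 and ADAM15 have differences of 1 sign in all 3 pairs. Among these the replicate 1 pair is the largest for ADAM8, ADAM17, ADAM19, PLAU and PLAUR, and the smallest in size for ADAM9 and ADAM10.

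ADAM9, a widely expressed membrane protease that can cut heparin-binding EGF-like growth factor and other surface proteins, moved the other way. Its signal was 6.46, 6.41 and 6.21 on aspirin arrays 1 to 3 and 7.14, 7.67 and 7.60 on control arrays 1 to 3. All aspirin arrays were below all controls. The change was -1.11 ± 0.17 (adjusted p = 0.00402), 2.16-fold lower with aspirin. Within pairs it was -0.68, -1.27 and -1.39, and on chip 1 alone it was -1.03 (adjusted p = 0.0558). The call was lost without both replicate 2 arrays, which leaves the chip 1 arrays, and without both replicate 3 arrays (adjusted p = 0.0915), and kept without any 1 array. The adjusted p was 0.00582 with the chip as a block. Under the all-gene background the change was -0.23 (adjusted p = 0.0363) and without background correction -0.64 (adjusted p = 0.00693). The tested genes nearest in profile to ADAM9 were TMEM50A (distance 0.21), the tetraspanin gene TSPAN9 (0.24) and ECT2 (0.26), an exchange factor needed for cell division, which changed by -1.03, -1.11 and -1.21.

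ADAM10, the sheddase of Notch receptors and E-cadherin, did not pass without the replicate block and did with it. Its signals were 7.92, 8.08 and 7.47 on aspirin arrays 1 to 3 and 8.20, 8.41 and 8.34 on control arrays 1 to 3. The aspirin arrays were all lower, aspirin replicate 3 the most. The difference was -0.49 ± 0.18 (adjusted p = 0.0885; 95% interval -0.90 to -0.08). With the replicate block the adjusted p was 0.0399, in a fit where 33.1% of all genes tested passed (17.4% higher and 15.7% lower), and ADAM10 was then called lower beside ADAM9 and ADAMTS1. Without aspirin replicate 3 the difference was -0.31.

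ADAM17, the tumor necrosis factor convertase, had signals of 7.86, 7.999 and 7.44 with aspirin and 7.42, 7.72 and 7.43 in controls. Groups overlapped, and aspirin replicate 3 lay within the control range. The difference of 0.24 ± 0.18 did not pass (adjusted p = 0.399; 95% interval -0.17 to 0.65). ADAM15, which carries an integrin-binding motif, had signals of 10.29, 9.89 and 9.96 with aspirin and 10.03, 9.96 and 10.04 in controls. The groups overlapped there as well. Its difference of 0.04 ± 0.15 did not pass (adjusted p = 0.898), and the 95% interval of -0.30 to 0.37 lies within a 2-fold change either way. The sign of that difference flipped with median scaling and cyclic loess.

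ADAMTS1, a secreted protease that cleaves the matrix proteoglycans versican and aggrecan, lay close to background. Its signals were 4.68, 4.97 and 4.51 on aspirin arrays and 5.09, 5.28 and 5.51 on control arrays. All aspirin arrays were lower, and the signal exceeded background on 1 of 3 aspirin arrays and on 3 of 3 control arrays. The change of -0.58 ± 0.17 was just past the threshold (adjusted p = 0.0474). Its call was lost without control replicate 2 or 3 (adjusted p = 0.103 and 0.155), without aspirin replicate 1 or 3 (adjusted p = 0.1004 and 0.155), and without both replicate 2 or both replicate 3 arrays. It was also lost with median scaling, cyclic loess and no filter (adjusted p = 0.0714, 0.0519 and 0.0773), with a larger offset of 50 (-0.28), under the all-gene background (-0.03) and without background correction (-0.18). With the chip as a block the adjusted p was 0.0469, with -0.71 on chip 1 (adjusted p = 0.107) and -0.32 in the chip 2 pair. Fibroblast-type markers moved the same way: the proteoglycan genes LUM (-2.88 ± 0.34, adjusted p = 0.00129) and DCN, and the collagen genes COL1A1 (-1.23 ± 0.22, adjusted p = 0.00716) and COL1A2 (-1.04 ± 0.24, adjusted p = 0.0194) fell, while FAP passed with the replicate block (adjusted p = 0.00523) and not without it (adjusted p = 0.0627), and COL3A1 and PDGFRB were too dim to be tested. DCN was above background on no aspirin array and on all 3 control arrays. It passed the detection filter through its control arrays alone, which limits the reading of its adjusted p (0.000909). Its level was lower by at least 3.63-fold. For this bound the control mean was set against, on each aspirin array, the higher of the DCN signal and the lowest one detected. That bound holds for the background used here: under the all-gene background the differences were -0.19 for DCN, -0.70 for LUM, -0.24 for COL1A1 and -0.12 for COL1A2, and only DCN of these 4 passed. COL1A2 passed in 13 of 22 other settings, COL1A1 in 18, and COL1A2 lost its call without control replicate 2 or 3 or aspirin replicate 1 or 2 (adjusted p = 0.0553 to 0.0696). The part of these transcripts in the change of ADAMTS1 was not tested.

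ADAM12, a protease known from placenta, muscle and stroma, was near background on all arrays. Its normalized signals were 4.50, 4.43 and 4.55 with aspirin and 4.60, 4.51 and 4.54 in controls, overlapping, and it was above background on 1 aspirin array and on 0 of 3 control arrays. That was aspirin array 3, by a score of 0.951 that is off the steps, at 103.6 units against a background mean of 99.7. No change of ADAM12 can be read from such levels, and it was not tested. The rest of the family was likewise dim. Of 32 other ADAM and ADAMTS genes, 22 were above background on no array, 9 on 1 or 2 arrays and 1, ADAM23, on 4. ADAM23, which lacks an active protease site, was also the 1 tested, with signals of 4.45, 4.87 and 5.30 with aspirin and 4.73, 6.21 and 6.203 in controls. Groups overlapped, and its difference of -0.84 ± 0.40 did not pass (adjusted p = 0.175), while the adjusted p with the replicate block was 0.0152.

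**Figure D3:**
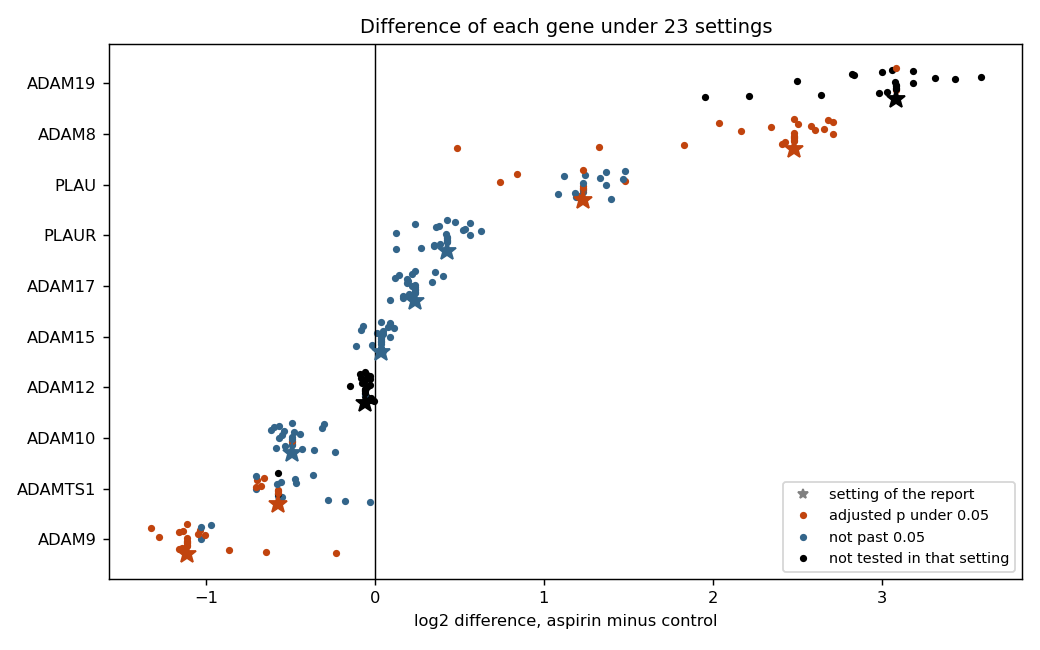
Log2 difference, aspirin minus control, of each of the 10 genes in the setting of the report (stars) and in 22 other settings (dots), red where adjusted p was under 0.05, blue where it was not and black where the gene was not tested. ADAM8 is red throughout, from 0.49 to 2.71, while PLAU and ADAMTS1 are past the threshold in 8 and 7 of the other settings.

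The partners of urokinase split in both directions. The list of plasminogen activators, their inhibitors, receptors and activating proteases had 20 genes tested, of which 2 rose, 3 fell and 15 missed the threshold, with a median of 0.08 and 20.2% of all genes past the threshold. With the replicate block 3 rose and 4 fell, and 33.1% of all genes passed. S100A10, which with annexin A2 forms a cell surface receptor for plasminogen, had signals of 12.02, 12.14 and 12.19 with aspirin and 13.42, 13.40 and 13.43 in controls. Both groups were tight and far apart. S100A10 fell by 1.30 on the log2 scale (-1.30 ± 0.13, adjusted p = 0.000663), a call kept in all 22 other settings, and its partner ANXA2 fell too (-0.74 ± 0.13, adjusted p = 0.00566). ST14, encoding matriptase, a surface protease that can activate urokinase, was the third to fall (-0.67 ± 0.14, adjusted p = 0.0110), and was named after its values were seen. ITGB3, a chain of the vitronectin receptor, rose by 1.40 ± 0.20 (adjusted p = 0.00243) but was above background on 1 of 3 control arrays and rose by only 0.10 with the all-gene background. THBD, the anticoagulant receptor thrombomodulin, rose by 1.051 ± 0.18 (adjusted p = 0.00536). ANXA2, ST14 and THBD did not pass when both replicate 2 arrays were left out (adjusted p = 0.0776, 0.0680 and 0.0747), nor when both replicate 3 arrays were (adjusted p = 0.0832, 0.133 and 0.0739).

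Among genes that regulate or inhibit sheddases, 24 were tested: 3 rose, 1 fell and 20 missed the threshold, with a median of 0.04. That share is near the 20.2% of all genes tested that passed. With the replicate block 5 rose and 2 fell, where 33.1% of all genes passed. The adaptor genes SH3PXD2A and SH3PXD2B, whose proteins organise invadopodia and of which the first binds ADAM12, ADAM15 and ADAM19, rose by 0.73 ± 0.14 (adjusted p = 0.00985) and 0.79 ± 0.15 (adjusted p = 0.00799). RHBDF2, the inactive rhomboid that carries ADAM17 to the cell surface, rose by 0.63 ± 0.15 (adjusted p = 0.0229). TSPAN10, a tetraspanin of the group that escorts ADAM10, had signals of 6.83, 7.55 and 7.10 with aspirin and 8.26, 8.17 and 8.05 in controls. These groups did not overlap. It fell by 0.997 on the log2 scale (SE 0.19, adjusted p = 0.00920). The TIMP inhibitors TIMP1, TIMP2 and TIMP3 did not pass (0.26 ± 0.91, -0.15 ± 0.21 and 0.55 ± 0.31, named after their values were seen). For TIMP1, replicate 1 minus the mean of replicates 2 and 3 was -2.87 in controls and -2.69 with aspirin. With that spread the main test cannot tell whether TIMP1 changed. Its differences within replicate pairs 1 to 3 were 0.39, 0.13 and 0.27, and it did not pass with the replicate block either (SE 0.12, adjusted p = 0.131). All 4 calls were lost without both replicate 3 arrays (adjusted p = 0.0637 to 0.127), those of RHBDF2, SH3PXD2A and SH3PXD2B also without both replicate 2 arrays (adjusted p = 0.131, 0.0749 and 0.0886), and that of RHBDF2 when control replicate 1, aspirin replicate 2 or aspirin replicate 3 was omitted (adjusted p = 0.0522, 0.0787 and 0.0585). Under the all-gene background SH3PXD2B rose by 0.14 and TSPAN10 changed by -0.36.

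Substrates of the sheddases were mostly not past the threshold. Among 40 tested, 7 rose, 0 fell and the other 33 missed the threshold, with a median of 0.14; 10.5% of all genes tested rose and 9.73% fell. With the replicate block 11 rose and 3 fell, near the 33.1% of all genes that passed in that fit (17.4% higher and 15.7% lower). NRG1, a neuregulin that missed the detection filter as ADAM19 did, had signals of 4.43, 4.65 and 4.72 with aspirin and 5.48, 5.91 and 6.08 in controls. It was above background on 0 of 3 aspirin arrays and 3 of 3 control arrays, and the groups did not overlap. In group means NRG1 was lower by at least 1.99-fold. Like that of DCN, this bound leaves out the spread between arrays and holds for the background used here. The adjusted p was 0.00953 with no filter. It was 0.00329 when genes were filtered by signal (where 12% of all genes passed as lower). NRG1 passed that filter, added once the data had been seen, through its control arrays alone. BSG, CXCL16, F11R and SDC1, which missed the detection filter likewise, did not pass under the signal filter. With the replicate block added to that fit, BSG (0.45, adjusted p = 0.0175) and SDC1 (-0.68, adjusted p = 0.00368) passed. CXCL16 and F11R did not (adjusted p = 0.764 and 0.0619). HBEGF, heparin-binding EGF-like growth factor, had signals of 9.73, 10.35 and 10.53 with aspirin and 6.98, 8.36 and 8.44 in controls. Replicate 1 was the lowest of both groups, which did not overlap. HBEGF rose by 2.28 ± 0.38 (adjusted p = 0.00545), and by 2.30 under the all-gene background. The receptor kinases MERTK and TYRO3, which bind the ligands GAS6 and protein S, rose by 2.23 ± 0.15 (adjusted p = 0.000200) and 0.80 ± 0.15 (adjusted p = 0.00784). EFNB2, which encodes the membrane ligand ephrin-B2, rose by 0.74 ± 0.15 (adjusted p = 0.0120). The other 3, named after their values were seen, were its receptor EPHB4 (0.73 ± 0.16, adjusted p = 0.0140), P-cadherin or CDH3 (0.78 ± 0.19, adjusted p = 0.0214) and nectin 4, listed as PVRL4 (0.92 ± 0.26, adjusted p = 0.0363), which was above background on 1 of 3 control arrays. With the all-gene background MERTK rose by 0.24, TYRO3 by 0.21 and EPHB4 by 0.33, and the difference of PVRL4 was 0.057 (adjusted p = 0.170). HBEGF, TYRO3, EFNB2, EPHB4, CDH3 and PVRL4 lost their calls without both replicate 2 arrays and without both replicate 3 arrays (adjusted p = 0.050009 to 0.1695), and EPHB4 also without control replicate 3 (adjusted p = 0.0521). The call of CDH3 was also lost without aspirin replicate 1, 2 or 3 (adjusted p = 0.0579, 0.0591 and 0.0522), with median scaling (adjusted p = 0.0559) and under the all-gene background (adjusted p = 0.0620). That of PVRL4 was lost without any 1 array other than control replicate 1 (adjusted p = 0.0556 to 0.120), with no filter (adjusted p = 0.0965), with the offset of 50 and without background correction.

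**Figure D4:**
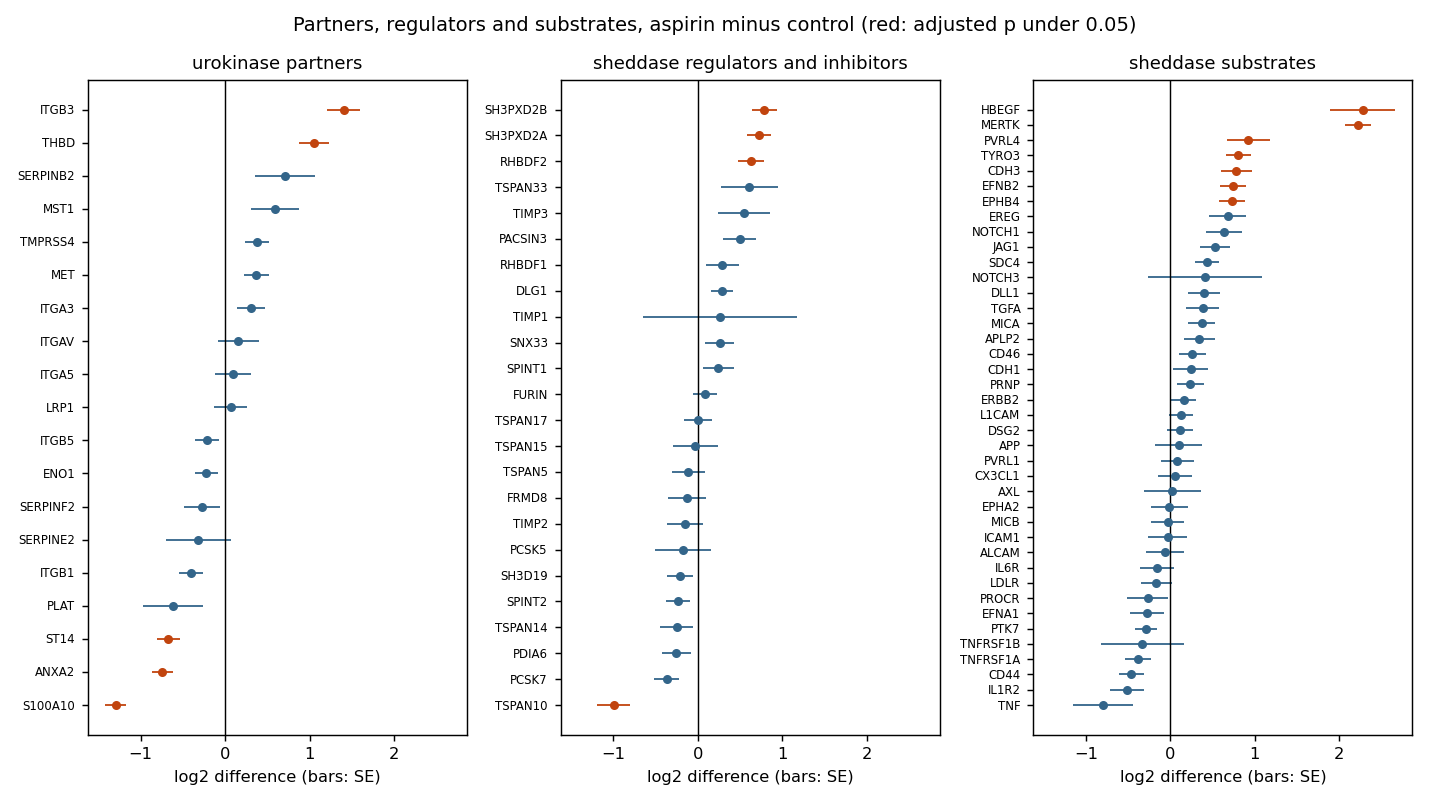
Log2 difference, aspirin minus control, with SE bars, of the tested genes in 3 lists: partners of urokinase (all but 1 of 20), 24 regulators and inhibitors of sheddases and 40 sheddase substrates, with genes past an adjusted p of 0.05 in red. S100A10 at -1.30 is the lowest value and HBEGF at 2.28 the highest.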

How the data were processed

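Illumina arrays measured total RNA of SCC25 cells, 3 with aspirin and 3 controls. The deposited signal table holds, per the file headers, 1 intensity per gene symbol and array, not normalized and with background, so tests could not be run per probe as the design had assumed; GenomeStudio 1.9.0 is named in the submitters' processing notes, and the sources used here do not name a build. The deposited detection columns are named p-values in the file headers but had means of 0.994 for the 1000 genes of highest signal and 0.170 for the 1000 of lowest, so they were read as a score of 1 minus p.

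Background mean and SD per array were inferred from the scores of the 27647 genes (79.7%) on whole steps of 1 in 770. Normal-exponential correction, an offset of 16, quantile normalization, log2, lmFit and eBayes followed (limma 3.58.1, R 4.3.3). The steps were also run on simulated data. Those had independent noise, all scores on steps and no replicate or chip effect, so they do not test the steps for these features of the arrays. The tests took genes whose score exceeded 0.95 on 3 or more arrays, without 1 gene that had a 0 signal. A gene was above background where its score exceeded 0.95 or its signal the background mean plus 3 SD. The number of arrays limits the precision.

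The 10 genes, the lists and the rules were chosen with earlier results of these data known. Named were the 10 genes, up to 4 genes of each list with the smallest p-values, and the 3 nearest profiles to the largest riser and faller past the threshold; exceptions are marked. The main fit had no block, so its p-values do not use pairs. For the pair differences and the replicate block, replicate numbers were taken as pairs because same-numbered arrays deviated together (correlations of 0.507, 0.515 and 0.319). That comes from the data and not the labels. Replicate 2 of both groups shared chip 2, and the part of the chip in these correlations was not tested. The fit with the block stands beside the members and lists whose calls it changed. Alternatives covered background, offset, normalization, filters, variance prior, replicate, chip, left-out arrays and the deposited matrix of background-subtracted intensity. The values of 1 gene of the urokinase list are not reported here.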

Additional observations from a re-analysis of the deposited data

How the results depend on the processing

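In 22 other settings each, ADAM8 kept its direction and call in 22, ADAM9 kept its direction in 22 and its call in 19, and PLAU and ADAMTS1 kept their direction in 22, with calls in 8 and in 7 (of 20 that tested ADAMTS1). Chip 1 alone and the omission of both replicate 2 arrays are the same fit, so it enters all such counts more than once. ADAM10 passed only with the replicate block, and ADAM17 and PLAUR in none of 22. The difference of ADAM15, near 0, changed sign with median scaling (-0.11) and cyclic loess (-0.020), and ran from -0.085 to 0.115 with arrays left out, at -0.085 without aspirin replicate 1 and -0.073 without replicate 1; the cause was not tested. The 4 genes past the threshold became 2 with the all-gene background, without background correction, with median scaling and with cyclic loess, and 1 on chip 1 alone, where fewer arrays enter. They were 1 to 4 with arrays left out (2 without aspirin replicate 1, aspirin replicate 3 or control replicate 3) and 5 with the replicate block. Over all genes, 3060 passed (1588 higher, 51.9% of them), 5012 with the replicate block and 860 on chip 1. With arrays left out the count ran from 420, without both replicate 3 arrays, to 3131, without both replicate 1 arrays. Omitting aspirin replicate 2 left 2028, aspirin replicate 3 1775 and control replicate 3 1862 genes. With median scaling 40.3% of the genes past the threshold were higher. The list counts ran from 2 to 9 for urokinase partners, 0 to 7 for regulators and 1 to 14 for substrates. Signal close to background limits ADAM8 in controls, ADAM12 and ADAMTS1.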

Other observations

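In the deposited matrix of background-subtracted intensities, names and values do not line up through the whole table. Set against the signal table within 0.3 intensity units, 15338 lines carry the value of their own gene, 7171 that of the next gene and 12173 that of the gene after it. The 8 ADAM and ADAMTS1 lines fall in the first stretch and carry their own values. The line named PLAU holds -3.7 to 5.7 units over the 6 arrays, at the level of background, while the values of PLAU, 1015.1 to 6104.7 units, stand under PLAGL2. The line named PLAUR holds 5.5 to 15 units, and the values of PLAUR, 84.9 to 265.2 units, stand under PLAT.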
